A study of Mus musculus with 6 samples.

Results

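The surface antibody panel comprised 88 antibodies, each joined to a DNA tag that is sequenced together with the RNA of the cell it binds. Its members were every feature of the count matrices that is neither a gene nor a hashtag, which gave 88 of 96 non-gene features, beside 8 hashtags and 32285 genes. A total of 83 antibodies had a matching gene in the same matrices. The other 5 were 4 isotype controls (Armenian hamster IgG, rat IgG1, rat IgG2a and rat IgG2b), which have no mouse antigen, and an antibody named IgM. Levels are given as unique molecular identifiers (UMIs) per cell, the number of distinct tag molecules counted. Barcodes with over 20000 antibody counts were left out.

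The cells were CD45-sorted cells from subcutaneous YUMM1.7 tumours, a mouse melanoma line, in female C57BL/6J mice (strain C57BL/6JRccHsd). All mice carried floxed alleles of Nr3c1, the gene of the glucocorticoid receptor. The LysM-Cre mice also carried a Cre recombinase under the Lyz2 promoter, which is active in monocytes, macrophages and neutrophils, and the floxed mice did not. Mice 8 weeks old received 250000 tumour cells and, from about day 7, anti-PD-1 or an isotype antibody at 12.5 mg/kg, 2 doses a week for 3 weeks, with tumours taken at day 28. The 4 conditions (floxed isotype, floxed anti-PD-1, LysM-Cre isotype and LysM-Cre anti-PD-1) held 4 mice each. Each of 2 pools, E5 and E6, held 8 hashtagged mice, 2 per condition, and the panel was stained on the pooled cells before sorting. The mice are numbered 1 to 4 within a condition only to name them.

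Antibodies of this kind read proteins at the cell membrane that define blood cell lineages, such as the T cell co-receptors CD4 and CD8, the integrins of myeloid cells, and the receptors and ligands through which cells inhibit or stimulate T cells. Some of these proteins, among them CD68 and CTLA-4, are held mostly inside the cell, and surface staining reaches the part at the membrane. Isotype controls are antibodies of the same species and class without a known target in the mouse, so their counts give the level of tag that cells carry without antigen binding. Macrophages, monocytes and neutrophils also carry Fc receptors, which bind the constant part of IgG.

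The tags decide which antibody a read is credited to, and the controls and the closest pairs are printed for that reason. The submitters' table gives a tag of 15 bases for 88 of its 89 surface entries, and 87 of these tags are distinct. CD304 and NRP-1, which are names of one protein, share the tag below. Capitals mark the bases in which a tag differs from the nearest other tag of the panel.
CD304 and NRP-1: ccagctcattcaacg
Armenian hamster IgG: CCtgTcATtaAgacT
Rat IgG1: aTcagAtgCcCtCaT
Rat IgG2a: AAgtCaggTTcGTtt
Rat IgG2b: gATtCTtGAcgaCcT
IgM: atGTAccCGgtGTgt
CD137L: cagTtcagtACgCAg
CD5: cagCtcagtGTgTTg
CXCR5: aCGtagTcacCtAgt
Msr1: aGCtagAcacGtTgt
IL1RL1: gCGatggAGcAtgtt
JAML: gTTatggTTcGtgtt
The last 3 pairs (CD137L with CD5, CXCR5 with Msr1, IL1RL1 with JAML) are the closest in the panel, at 5 differing bases of 15. The controls differ from their nearest neighbours by 6 to 8 bases.

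The antibody data covered 16865 cells of 16 mice, 8063 in pool E5 and 8802 in pool E6, with medians of 1239 and 1651 antibody counts per cell. Barcodes over 20000 antibody counts were 38 in E5 and 212 in E6, and they held 4.31% and 11.19% of all antibody counts. The pools shared 805 barcodes, of which 33 in E5 and 151 in E6 were among the cells used. Over all 805, the medians were 3 antibody counts and 663 gene UMIs in E5, and 7496 and 52089 in E6. Mice held from 133 to 3083 cells. Cells were grouped by RNA alone, without the antibodies, into classes named from marker genes, so that monocyte, for example, stands for monocyte-like cells. Some of these marker genes, such as Cd4, Cd8a and Ly6g, encode antigens of the panel. The 9 classes in which 6 or more mice had 20 or more cells held 14451 cells, namely monocytes (4527), macrophages (2418), CD8 T cells (1768), neutrophils (1681), NK cells (1141), fibroblasts (977), regulatory T cells (758), CD4 T cells (668) and type 2 dendritic cells, cDC2 (513). The fibroblast class goes against the CD45 sort, since its RNA for Ptprc, the CD45 gene, was 56.5 CPM (counts scaled to a fixed library total) against 500.4 to 1570 CPM in the other 8 classes. Its median of 24645 gene UMIs per cell was the highest of the 9 classes. Fibroblast genes were its only marker list to pass the limits for naming, and whether it held tumour cells was not tested. A further 1795 cells were in clusters left unnamed. Barcodes with hashtags of several mice were removed as doublets, and doublets within a mouse remain. Nr3c1 RNA in macrophages ran from 46.36 to 86.29 CPM in floxed and from 22.57 to 79.2 CPM in LysM-Cre mice with isotype, and from 53.31 to 58.06 and from 22.83 to 39.31 CPM with anti-PD-1. In monocytes it ran from 64.11 to 71.92 and from 38.93 to 63.76 CPM with isotype, and from 47.68 to 72.74 and from 26.68 to 39.52 CPM with anti-PD-1. The ranges of the genotypes overlapped only in macrophages with isotype among these 4 comparisons, and LysM-Cre mice were the lower in the other 3. 3′ reads outside a deleted exon cannot check the deletion.

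The isotype controls were highest on macrophages and lowest on NK cells. Armenian hamster IgG on macrophages ranged from 0.259 to 1.7 UMIs per cell over 16 mice, with a median of 0.761 (mean 0.832 ± 0.46, SD, n = 16). On NK cells it ranged from 0 to 0.229, with a median of 0.102 (mean 0.104 ± 0.0629, SD, n = 14). The ranges of these classes did not overlap. Rat IgG1 followed, at 0.71 ± 0.333 on macrophages, 0.356 ± 0.111 on monocytes (SD, n = 16 each) and 0.114 ± 0.0779 on NK cells (SD, n = 14). Rat IgG2b was the weakest of the detected controls, at 0.065 ± 0.0293 on macrophages and a mean of 0.0161 on NK cells. The IgM antibody was also low, at 0.399 ± 0.141 UMIs per cell on macrophages and 0.105 on NK cells.

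The mean over the controls ordered the classes as macrophages (0.536 UMIs per cell), monocytes (0.243), neutrophils (0.21), fibroblasts (0.177), cDC2 (0.148), regulatory T cells (0.135), CD4 T cells (0.0988), CD8 T cells (0.0974) and NK cells (0.0779). RNA of the inhibitory IgG receptor Fcgr2b stood at 708.5 CPM in macrophages, 668.1 in monocytes, 303.9 in cDC2, 115.8 in neutrophils, 33.26 in CD8 T cells and 19.81 in NK cells. RNA of the activating receptor Fcgr3 stood at 668 CPM in macrophages, 652.4 in monocytes, 557.2 in neutrophils and 61.7 in NK cells. Macrophages and monocytes thus had similar Fcgr2b and Fcgr3 RNA and control levels that differed by over 2-fold in their means, and the part of Fc receptors in the control counts was not tested. Rat IgG2a had 0 counts in all cells. A floor of 3 counts then allows up to 0.000372 UMIs per cell in E5 and 0.000341 in E6, for counting error only, far under the other controls. It was left out as a reference.

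**Figure D1:**
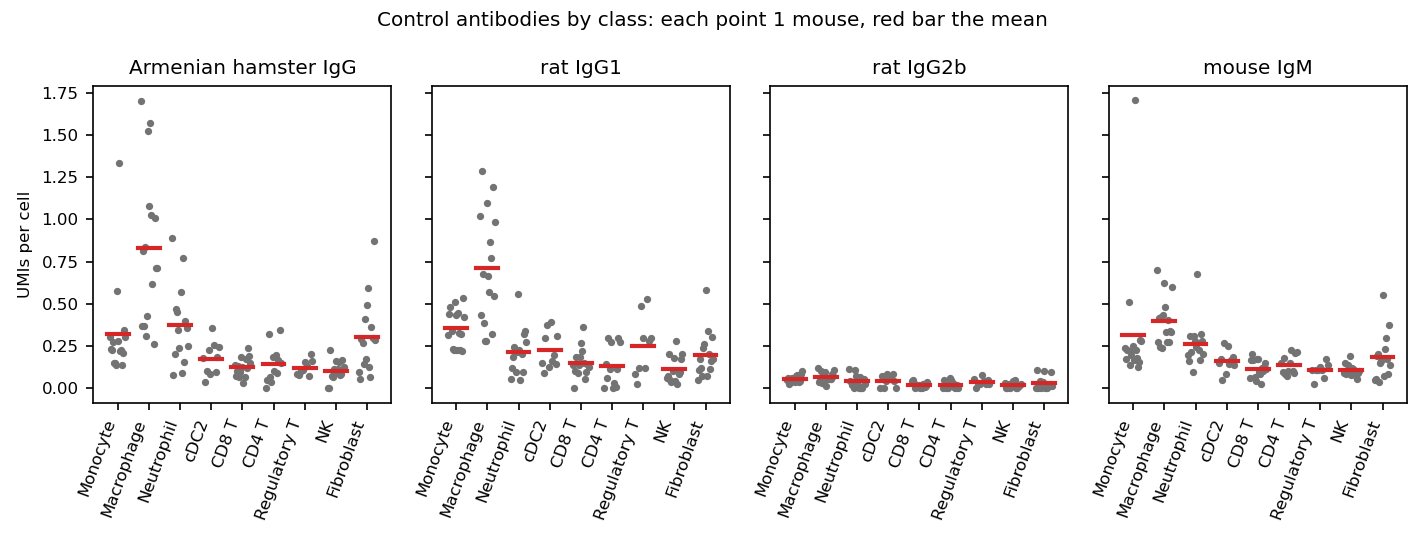
Levels of hamster IgG, rat IgG1, rat IgG2b and the IgM antibody in UMIs per cell (vertical axes) for the 9 classes (horizontal axes). Each point is a mouse (20 or more cells) and the red bar is their mean. Hamster IgG reaches 1.7 on macrophages and stays at or under 0.229 on NK cells.

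Most antibodies stood above the controls in most classes. Each of 84 antibodies (the 83 with a gene and IgM) was compared, within each mouse and class, with the highest of the 3 detected controls. The level was called above the controls at an adjusted p of at most 0.05 (exact two-sided sign permutation over mice, Benjamini-Hochberg over 756 comparisons) with a mean of at least 2-fold. In all 478 of 756 comparisons were called. By class the calls were 60 of 84 in CD4 T cells (71.4%), 59 in regulatory T cells (70.2%), 58 in CD8 T cells and 58 in cDC2 (69% each), 52 in NK cells (61.9%) and 51 in monocytes (60.7%). Fibroblasts and neutrophils had 48 calls each (57.1%), and macrophages, where the controls were highest, had 44 (52.4%). With at least 50 cells required per mouse and class the calls came to 311. Classes with fewer than 6 such mice then left the comparison and other classes could lose mice. The 311 calls are thus out of fewer than 756 comparisons.

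The calls were uneven across antigens. A total of 38 antibodies were above the controls in every one of the 9 classes, 25 in 2 to 8 classes, 7 in a single class and 14 in none. The 14 included the B cell antigens CD21/35 and CXCR5, the macrophage and monocyte antigens CD169, CCR2, CD115 and MSR1, the eosinophil receptor CCR3, SiglecH of plasmacytoid dendritic cells, CD135, CD83, CD152 (CTLA-4), CXCR4 and IgM. By antigen group, 12 of 17 homing and adhesion antibodies, 11 of 24 myeloid and 6 of 13 dendritic antibodies were called in every class, against 2 of 11 checkpoint and costimulation and 2 of 6 T cell antibodies. The antibodies called in a single class included CD36 in monocytes, TIM4 and XCR1 in cDC2, IL1RL1 and TIGIT in regulatory T cells and CD137L in fibroblasts.

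The share of calls was larger where the matching gene had more RNA. Where the RNA was under 1 CPM, 31 of 119 antibody and class pairs were called (26.1%). At 1 to 10 CPM 81 of 175 were called (46.3%), at 10 to 100 CPM 192 of 253 (75.9%), and at 100 CPM or more 174 of 200 (87%). The pairs share mice, libraries and depth, so these shares are a description.

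**Figure D2:**
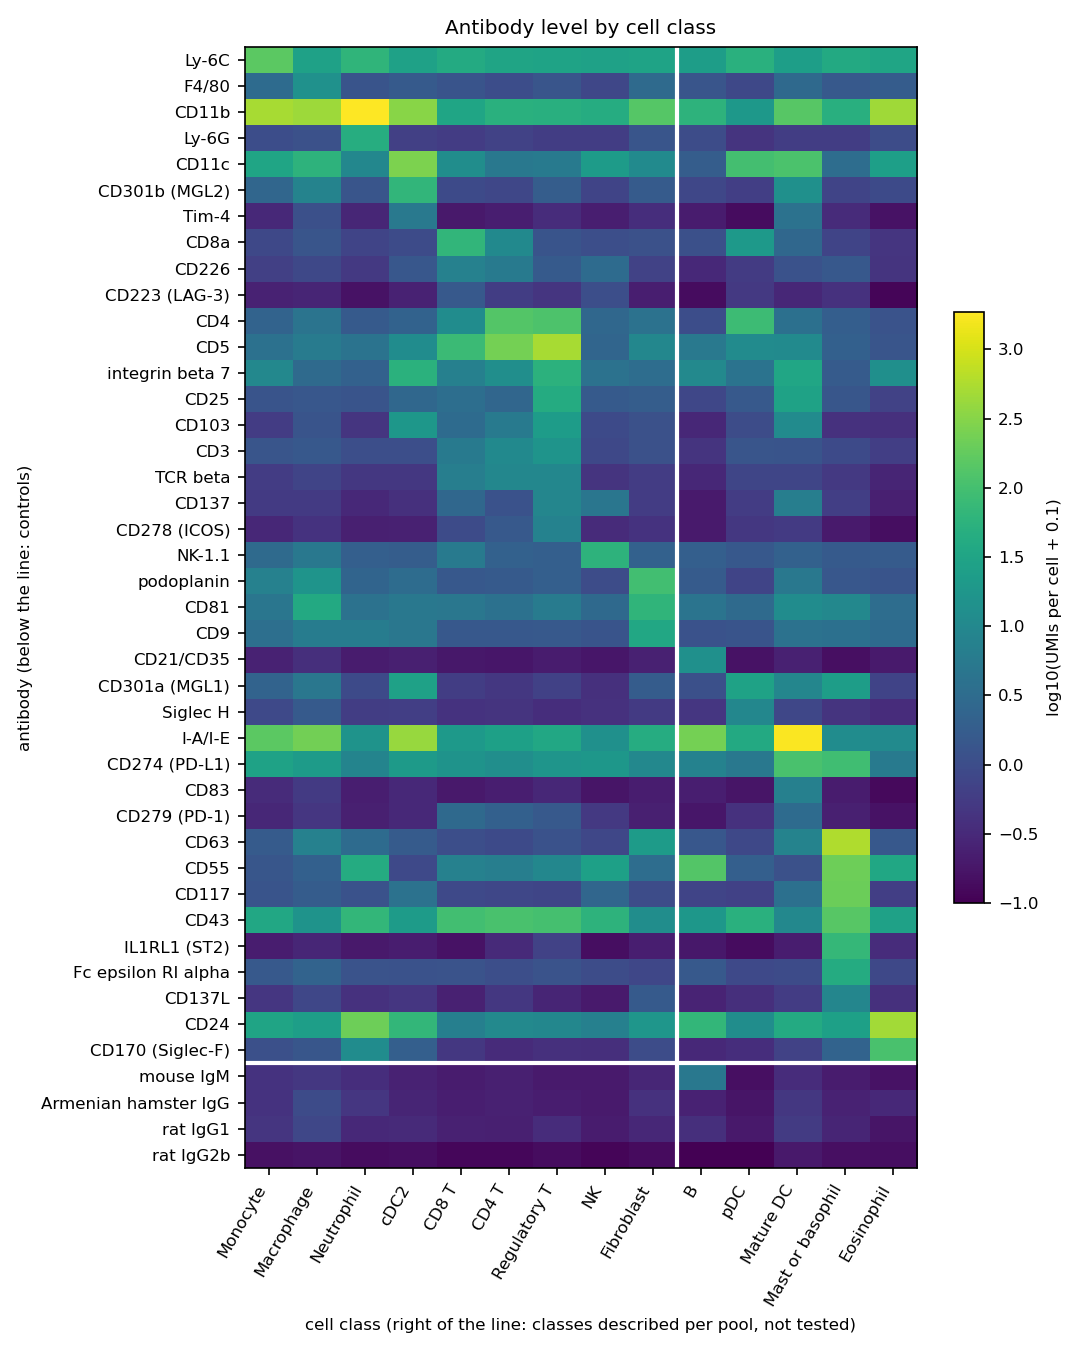
Antibody levels, as log10 of UMIs per cell plus 0.1 (colour), for each antibody (vertical axis) in the 9 tested classes and in B cells, plasmacytoid and mature dendritic cells, mast cells or basophils and eosinophils (horizontal axis), with the controls under the line. CD11b on neutrophils (1868) and I-A/I-E on cDC2 (414.1) are among the brightest of the tested classes.

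Class differences were then tested on the antibody counts alone. Antibody counts were summed per mouse and class, and each class was set against the mean of the other classes with edgeR's quasi-likelihood test and the mouse as a block. An antibody was called at a Benjamini-Hochberg adjusted p of at most 0.05 with at least a 2-fold change. Of 783 comparisons 307 were called, 139 higher and 168 lower. The share of 87 antibodies called was 48.3% in regulatory T cells, 47.1% in macrophages, 42.5% in CD8 T cells, 41.4% in cDC2 and in neutrophils, 35.6% in monocytes, 34.5% in CD4 T cells and in fibroblasts, and 27.6% in NK cells. These changes are relative to the other antibodies of the same cells. Under TMM scaling the median antibody moved by 0.11 on the log2 scale in macrophages and by −0.03 in NK cells. With the number of cells as the library size it moved by 1.12 in macrophages and −1.18 in NK cells.

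T cell antigens separated the 3 T cell classes from the rest. All 6 antibodies of the T cell group were higher in CD4 T cells and 5 of 6 in CD8 T cells. In regulatory T cells 4 were higher and 1 lower, while 5 of 6 were lower in macrophages, monocytes, neutrophils and cDC2. CD4, the co-receptor that binds MHC class II, ranged from 98.79 to 193.6 UMIs per cell on CD4 T cells, with a median of 133.7 (mean 136.4 ± 25.92, SD, n = 12). It averaged 119.1 ± 7.764 on regulatory T cells (SD, n = 9) and 1.504 on neutrophils. No mouse's CD4 T cells came near the CD8 T cells, whose highest mouse had 36.53. The change in CD4 T cells was 5.43 ± 0.21 (log2 ± SE, adjusted p = 1.75e-46, edgeR).

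CD8a, the co-receptor that binds MHC class I, ranged from 48.9 to 72.28 UMIs per cell on CD8 T cells (median 65.43, mean 63.49 ± 7.574, SD, n = 15), 5.98 ± 0.15 higher on the log2 scale than the mean of the other classes (adjusted p = 8.57e-62, edgeR). The CD4 T class carried CD8a too, from 0.3871 to 19.37 with a median of 13.05, and 100.5 CPM of Cd8a RNA. The mice of that class lay far apart, and its second-best marker list was that of CD8 T cells. CD8a was called higher there, at 3.15 ± 0.18 (adjusted p = 2.73e-31, edgeR), with that sign in 10 of 12 mice. CD8 T cells likewise had a mean of 11.99 ± 8.767 UMIs of CD4 per cell beside 12.72 CPM of Cd4 RNA. The CD8 T class joins a cluster of 1455 cells, with 7.503 UMIs of CD4 per cell, and a cluster of 313 cells led by proliferation genes, with 35.6. The second-best marker list of the smaller cluster was that of NK cells.

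The T cell receptor antibodies were lower in counts than the co-receptors. TCR beta was 9.449 ± 2.127 on CD4 T cells (6.771 to 13.65, n = 12) and 6.717 ± 1.291 on CD8 T cells (SD, n = 15), and its changes were 3.92 ± 0.10 and 3.07 ± 0.10 (log2 ± SE, adjusted p = 3.15e-60 and 1.01e-52, edgeR). CD5, a scavenger-receptor family protein that dampens T cell receptor signals, was the strongest T cell antibody. It ranged from 428.3 to 604 UMIs per cell on regulatory T cells (median 518.3, n = 9) and averaged 243.1 ± 46.34 on CD4 and 82.54 ± 22.24 on CD8 T cells, against 2.348 on NK cells. The order of CD5 followed that of its RNA, at 309.4, 189.8 and 75.24 CPM. CD5 rose by 5.18 ± 0.21 in regulatory T cells (log2 ± SE, adjusted p = 2.83e-44, edgeR).

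Regulatory T cells had the highest CD25, CD278, CD103 and TIGIT of the 9 classes. CD25, the alpha chain of the interleukin-2 receptor, ranged from 22.65 to 59.96 UMIs per cell with a median of 40.6 (mean 41.93 ± 12.11, SD, n = 9), against 3.381 on CD8 T cells. The lowest regulatory T value thus lay well over the CD8 T mean, and the change was 4.36 ± 0.14 (log2 ± SE, adjusted p = 8.53e-53, edgeR). CD278 (ICOS), a costimulatory receptor, ranged from 3.244 to 11.84 (median 8.022) and was 1.432 on CD4 T cells, a change of 4.45 ± 0.16 (adjusted p = 9.43e-49, edgeR). CD103, the integrin that binds E-cadherin, averaged 22.91 ± 6.419 on regulatory T cells (SD, n = 9) and 18.01 on cDC2. TIGIT, an inhibitory receptor, was lower in counts, from 0.4219 to 2.27 with a median of 1.5, and 2.21 ± 0.95 on the log2 scale above the highest control in 9 of 9 mice (SD, adjusted p = 0.00495, exact sign permutation). CD137 (4-1BB) was 9.197 ± 1.97 on regulatory T cells and 4.574 ± 1.433 on NK cells.

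NK cells were marked by NK-1.1, the activating lectin-like receptor of C57BL/6 NK cells, encoded by Klrb1c. It ranged from 32.5 to 71.72 UMIs per cell with a median of 57.25 (mean 56.72 ± 11.99, SD, n = 14), and CD8 T cells followed at 5.399. The change was 5.65 ± 0.09 (log2 ± SE, adjusted p = 7.11e-84, edgeR). Macrophages had 4.958 UMIs of NK-1.1 per cell beside 0.6817 CPM of Klrb1c RNA. Within the CD8 T class, NK-1.1 was 15.8 UMIs per cell in the cluster led by proliferation genes and 2.384 in the larger cluster.

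Neutrophils had the largest antibody counts of the 9 tested classes, a median of 3208 per cell. CD11b, the alpha chain of the complement receptor integrin Mac-1, ranged from 1454 to 2185 UMIs per cell with a median of 1912 (mean 1868 ± 190.3, SD, n = 14), against 524.4 ± 80.89 on monocytes and 437.3 on macrophages. Its RNA did not follow that order, at 475 CPM in neutrophils, 499.8 in monocytes and 444.3 in macrophages. Ly-6G, the GPI-anchored marker of mouse neutrophils, ranged from 34.12 to 52.38 (median 46.46) and was 1.231 on fibroblasts, the next class. It changed by 6.54 ± 0.15 and CD11b by 4.38 ± 0.10 (log2 ± SE, adjusted p = 1.11e-67 and 3.87e-66, edgeR). Siglec-F, better known from eosinophils, was present on neutrophils at 6.83 to 28.8 UMIs per cell (median 10.38), 4.74 ± 0.16 higher than in the other classes (adjusted p = 4.3e-51, edgeR). CD24 averaged 210.6 ± 32.73 and PIR-A/B 141 ± 24.57 (SD, n = 14).

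CD55, the decay-accelerating factor that protects cells from complement, was high on neutrophils with little RNA. It ranged from 33.56 to 49.02 UMIs per cell (median 43.27) beside 3.276 CPM of Cd55 RNA, while NK cells had 26.18 ± 9.551 UMIs per cell beside 38.42 CPM. Both were higher than the other classes, by 3.75 ± 0.13 and 3.71 ± 0.13 on the log2 scale, and cDC2 were lower by the test at −3.54 ± 0.27.

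Monocytes and macrophages shared most of their antigens in different amounts. At least 5 UMIs of the C1q genes, which are macrophage markers here, were held by 1989 of 4527 monocytes and 2314 of 2418 macrophages. Of 24 myeloid antibodies, 12 were higher and 1 lower in macrophages, and 8 were higher and 1 lower in monocytes. Ly-6C, the antigen of inflammatory monocytes, ranged from 94.22 to 244.3 UMIs per cell on monocytes (median 145.7, n = 16), and CD14, the lipopolysaccharide co-receptor, from 43.29 to 240.9 (median 107.1). They rose by 1.50 ± 0.09 and 1.59 ± 0.10 in monocytes (log2 ± SE, adjusted p = 8.59e-31 and 3.31e-29, edgeR). Ly-6C also stood on CD8 T cells, at 40.64 ± 4.004 (SD, n = 15), where RNA of its near-identical genes Ly6c1 and Ly6c2 together was 1265 CPM against 1198 CPM in monocytes. CD36, a scavenger receptor for fatty acids and oxidised lipoproteins, was above the controls in monocytes only by the rule used, at 1.688 ± 0.468 UMIs per cell, in 15 of 16 mice.

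F4/80, the adhesion receptor used to define mouse macrophages, ranged from 9.758 to 20.51 UMIs per cell on macrophages with a median of 12.91 (n = 16), against a mean of 3.033 on monocytes. CD88, the receptor of complement C5a, ranged from 22.5 to 70.37 (median 48.5). CD64, the high-affinity IgG receptor, averaged 12.53 ± 4.017 on macrophages and 5.581 on monocytes, whose Fcgr1 RNA of 519.6 CPM was above the 348.8 CPM of macrophages. F4/80 rose by 2.39 ± 0.08, CD88 by 2.18 ± 0.11 and CD64 by 2.10 ± 0.10 in macrophages (log2 ± SE, adjusted p = 1.36e-52, 6.76e-36 and 9.87e-39, edgeR). The named changes in macrophages were falls of lymphocyte and adhesion antigens, among them ITGB7 (−2.81 ± 0.24) and CD43 (−2.71 ± 0.14), and in monocytes CD5 (−3.10 ± 0.28), CD103 (−2.95 ± 0.30) and CD55 (−2.95 ± 0.20).

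The macrophage antigens CD68 and CD169 were weak. CD68, a lysosomal glycoprotein, ranged from 2.366 to 7.68 UMIs per cell on macrophages (median 4.311) beside 640.7 CPM of RNA, and stood above the highest control in 16 of 16 mice by 2.21 ± 0.86 on the log2 scale. CD169, the sialic acid receptor encoded by Siglec1, ranged from 0.6275 to 2.64 (median 1.455) beside 23.4 CPM. It was above the highest control in 11 of 16 mice, at a mean of 0.60 on the log2 scale (adjusted p = 0.0378, exact sign permutation), which is under the 2-fold limit.

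Type 2 dendritic cells had the highest CD11c and I-A/I-E of the 9 classes. CD11c, an integrin alpha chain, ranged from 228.7 to 337.6 UMIs per cell with a median of 262.1 (n = 10), against 58.28 on macrophages. I-A/I-E, which is MHC class II, ranged from 302.6 to 630.3 (median 398.5), against 231 ± 102.3 on macrophages, while RNA was 30565 CPM in cDC2 and 8543 in macrophages. The lectin CD301b (MGL2), used to mark a cDC2 subset of skin, varied widely between mice, from 10.4 to 153.3 with a median of 52.35. MGL2 rose by 4.83 ± 0.20, MGL1 by 4.57 ± 0.17 and CD11c by 4.02 ± 0.15 (log2 ± SE, adjusted p = 6.28e-44, 3.41e-46 and 8.29e-47, edgeR). Tim-4, a receptor for phosphatidylserine on dying cells, was 5.295 ± 4.22 on cDC2 (0.9375 to 16.07) and 1.001 on macrophages. XCR1, the chemokine receptor of type 1 dendritic cells, was 1.024 ± 0.679 on the cDC2 class and above the controls in 8 of 10 mice, with type 1 dendritic cell genes as the second-best marker list of that class (adjusted p = 0.0095, exact sign permutation).

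The fibroblast class was marked by podoplanin, a mucin-type glycoprotein of stromal cells, and by 3 tetraspanins. Podoplanin ranged from 48.62 to 187.4 UMIs per cell with a median of 87.39 (n = 15), against 16.28 on macrophages, whose Pdpn RNA of 41.63 CPM was not far under the 60.86 CPM of fibroblasts. CD81 ranged from 19.1 to 119.5 (median 66.15), CD9 from 12.14 to 75.64 (median 35.54) and CD63 from 6.524 to 46.35 (median 21.87). Podoplanin rose by 5.40 ± 0.13, CD63 by 3.99 ± 0.10 and CD9 by 3.96 ± 0.10 (log2 ± SE, adjusted p = 1.33e-65, 3.03e-64 and 1.35e-62, edgeR). CD9 RNA was as high in neutrophils (767.6 CPM) as in fibroblasts (759.9 CPM), while the antibody was 6.173 UMIs per cell on neutrophils and 35.76 ± 17.89 on fibroblasts.

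Costimulatory ligands were found on classes with little of their RNA. CD86, a ligand of CD28 and CTLA-4 known from antigen-presenting cells, ranged from 37.1 to 89.9 UMIs per cell on CD8 T cells with a median of 62.02 (n = 15). On cDC2 it ranged from 17.38 to 45.67 with a median of 24.47 (n = 10). Cd86 RNA had the opposite order, at 45.03 CPM in CD8 T cells, 220.8 in cDC2 and 158.3 in monocytes. CD86 was 2.28 ± 0.09 higher on the log2 scale in CD8 T cells (adjusted p = 1.62e-45, edgeR). CD80, the other CD28 ligand, was highest of the 9 tested classes on fibroblasts, from 3.619 to 56.72 (median 27.07), beside 3.992 CPM of RNA. Neutrophils had 102.5 CPM of Cd80 RNA and 3.623 UMIs per cell. Mature dendritic cells, a class outside the tests, had 64.39 UMIs of CD80 per cell. CD80 changed by 2.00 ± 0.10 in fibroblasts (adjusted p = 1.52e-35, edgeR). CD137L, the ligand of 4-1BB, was likewise highest of the 9 tested classes on fibroblasts, at 0.8571 to 2.478 UMIs per cell beside 4.981 CPM. Type 2 dendritic cells had 0.381 UMIs of CD137L per cell beside 41.19 CPM.

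CD279, CD223 and TIM-3 were highest on CD8 T cells among the 9 tested classes. Among the same classes TIGIT, CD137, CD278 and CD152 were highest on regulatory T cells. Outside the tests, mature dendritic cells had 2.981 UMIs of CD279 per cell, beside a mean of 2.752 on CD8 T cells. CD279 (PD-1) ranged from 1.231 to 4.685 UMIs per cell on CD8 T cells with a median of 2.69 (n = 15), averaged 1.947 ± 0.803 on CD4 T cells (n = 12) and 1.465 on regulatory T cells. CD223 (LAG-3) ranged from 0.4259 to 2.275 on CD8 T cells (median 1.539), and CD366 (TIM-3) from 1.426 to 6.519 (median 3.548). CD279 rose by 3.13 ± 0.13, CD223 by 2.99 ± 0.14 and TIM-3 by 2.34 ± 0.11 in CD8 T cells (log2 ± SE, adjusted p = 8.61e-44, 8.97e-39 and 9.01e-40, edgeR). Of 11 checkpoint and costimulation antibodies, 6 were higher in CD8 T cells and 6 in regulatory T cells, beside 18 of all 87 antibodies in each. In macrophages, neutrophils and fibroblasts 6 of the 11 were lower, beside 23, 21 and 21 of all 87. In monocytes and in cDC2 5 of the 11 were lower, beside 20 and 19 of all 87. CD274 (PD-L1), the ligand of PD-1, was widespread, at 28.52 ± 14.52 on monocytes (8.322 to 58.26), 22.19 on macrophages and 18.32 on NK cells. CD152 (CTLA-4) stayed near the controls even on regulatory T cells, at 0.0256 to 0.297 UMIs per cell with a median of 0.152, beside 1086 CPM of Ctla4 RNA.

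The 45 antibody and class results named by the rule over the 9 class contrasts kept their direction and call in all 1260 recalculations, which covered other scalings, filters, DESeq2, the cell limits and leaving out each mouse.

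Antibodies without a call in the 9 classes were read in 5 rarer classes, which were too sparse over mice for a test. B cells (98 cells) carried 13.85 UMIs of CD21/35 per cell (14.91 in E5 and 12.9 in E6) and 5.071 of IgM, where the highest tested class had 0.2764 and 0.3994. CXCR5, the follicle-homing receptor, was 0.1735 on B cells beside 89.24 CPM of RNA, close to the 0.1531 of hamster IgG on the same cells. Mature dendritic cells (107 cells) had 7.215 of CD83, with 7.018 in E5 and 7.431 in E6, 164.2 of CD86, 111.7 of CD274 and 1770 of I-A/I-E. Plasmacytoid dendritic cells (81 cells) carried 9.296 of SiglecH beside 2485 CPM of RNA, and 83.17 of CD4.

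Mast cells or basophils (208 cells) had 208.5 UMIs per cell of CD117, the stem cell factor receptor, 43.03 of FcεRIα, the IgE receptor, 69.65 of IL1RL1, the interleukin-33 receptor, and 570.3 of CD63. Their CD63 differed between the pools, at 263.2 in E5 and 804.5 in E6. The class joins a cluster of 175 cells led by Mcpt2 and Mcpt4 RNA and a cluster of 33 cells led by Mcpt8. CD117 was 247.8 in the larger and 0.4242 in the smaller, IL1RL1 82.67 and 0.6364, CD63 674.1 and 19.76, and FcεRIα 48.82 and 12.33. Whether the mix of these clusters differed between the pools was not tested. Eosinophils (66 cells, with a median of 644 gene UMIs) carried 112.7 of Siglec-F and 0.7879 of CCR3, beside 1303 CPM of Ccr3 RNA and 0.2121 of hamster IgG. Of the antibodies without a call in the tested classes, CD21/35, IgM, CD83 and SiglecH were several times higher in a rarer class in both pools, and CXCR5 and CCR3 were under 1 UMI per cell in the classes where their RNA was found.

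Antibody levels were next set against the RNA of the encoded protein across the 9 classes, as log2 of UMIs per cell plus 0.1 against log2 of CPM plus 1, each a mean over mice. The points share mice, libraries and depth, so the correlations are a description over 9 points. Pearson's r had a median of 0.83 and Spearman's rho a median of 0.68 over 83 antibodies. A total of 46 antibodies had r of at least 0.8, 18 had r under 0.3, and for 50 the class with most antibody was also the class with most RNA.

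The highest correlations were those of CD4 (0.98), CD226 (0.97), CD8a (0.97), CD5 (0.97), CD11a (0.96), CD137 (0.96), CD103 (0.96) and Ly-6G (0.96). Of these only Ly-6G had a positive r with the mean of the controls, at 0.30. The others had r of −0.35 for CD4, −0.68 for CD226, −0.41 for CD8a and −0.40 for CD5. For CD11a it was −0.50, for CD137 −0.56 and for CD103 −0.34. Rank agreement could be lower, since rho was 0.65 for CD8a and 0.50 for Ly-6G. Cd4, Cd8a and Ly6g were among the marker genes that named the classes. The class with most of their RNA was thus partly set by the naming.

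The lowest correlations included those of CD274 (0.00), CCR2 (−0.06), CCR3 (−0.16), CD137L (−0.17), TCR gamma/delta (−0.18), CD178 (−0.22) and CD47 (−0.66). CCR2, CCR3 and CD47 followed the mean of the controls, with r of 0.89, 0.95 and 0.88. A high r with the controls was also seen beside a high r with RNA, as for MSR1 (0.93 and 0.85), F4/80 (0.94 and 0.83) and CD163 (0.93 and 0.86). CD47, the signal that restrains uptake by phagocytes, was highest on macrophages, at 1.795 to 4.367 UMIs per cell (median 2.529, n = 16) beside 336.2 CPM, and 0.6619 ± 0.206 on CD8 T cells (n = 15) beside 554.1 CPM. CD274 followed neither its RNA nor the controls (r = 0.25 with the controls). Neutrophils had the most Cd274 RNA, 278.6 CPM, and 8.411 ± 6.798 UMIs per cell, while monocytes had 28.52 ± 14.52 beside 112.2 CPM. TCR gamma/delta was 2.02 on macrophages beside 1.124 CPM of its RNA and 1.25 on CD4 T cells beside 195 CPM. In the unnamed cluster of 770 cells led by Trdc, the gene of the delta chain, TCR gamma/delta was 4.291 UMIs per cell, 1.952 in E5 and 6.729 in E6.

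**Figure D3:**
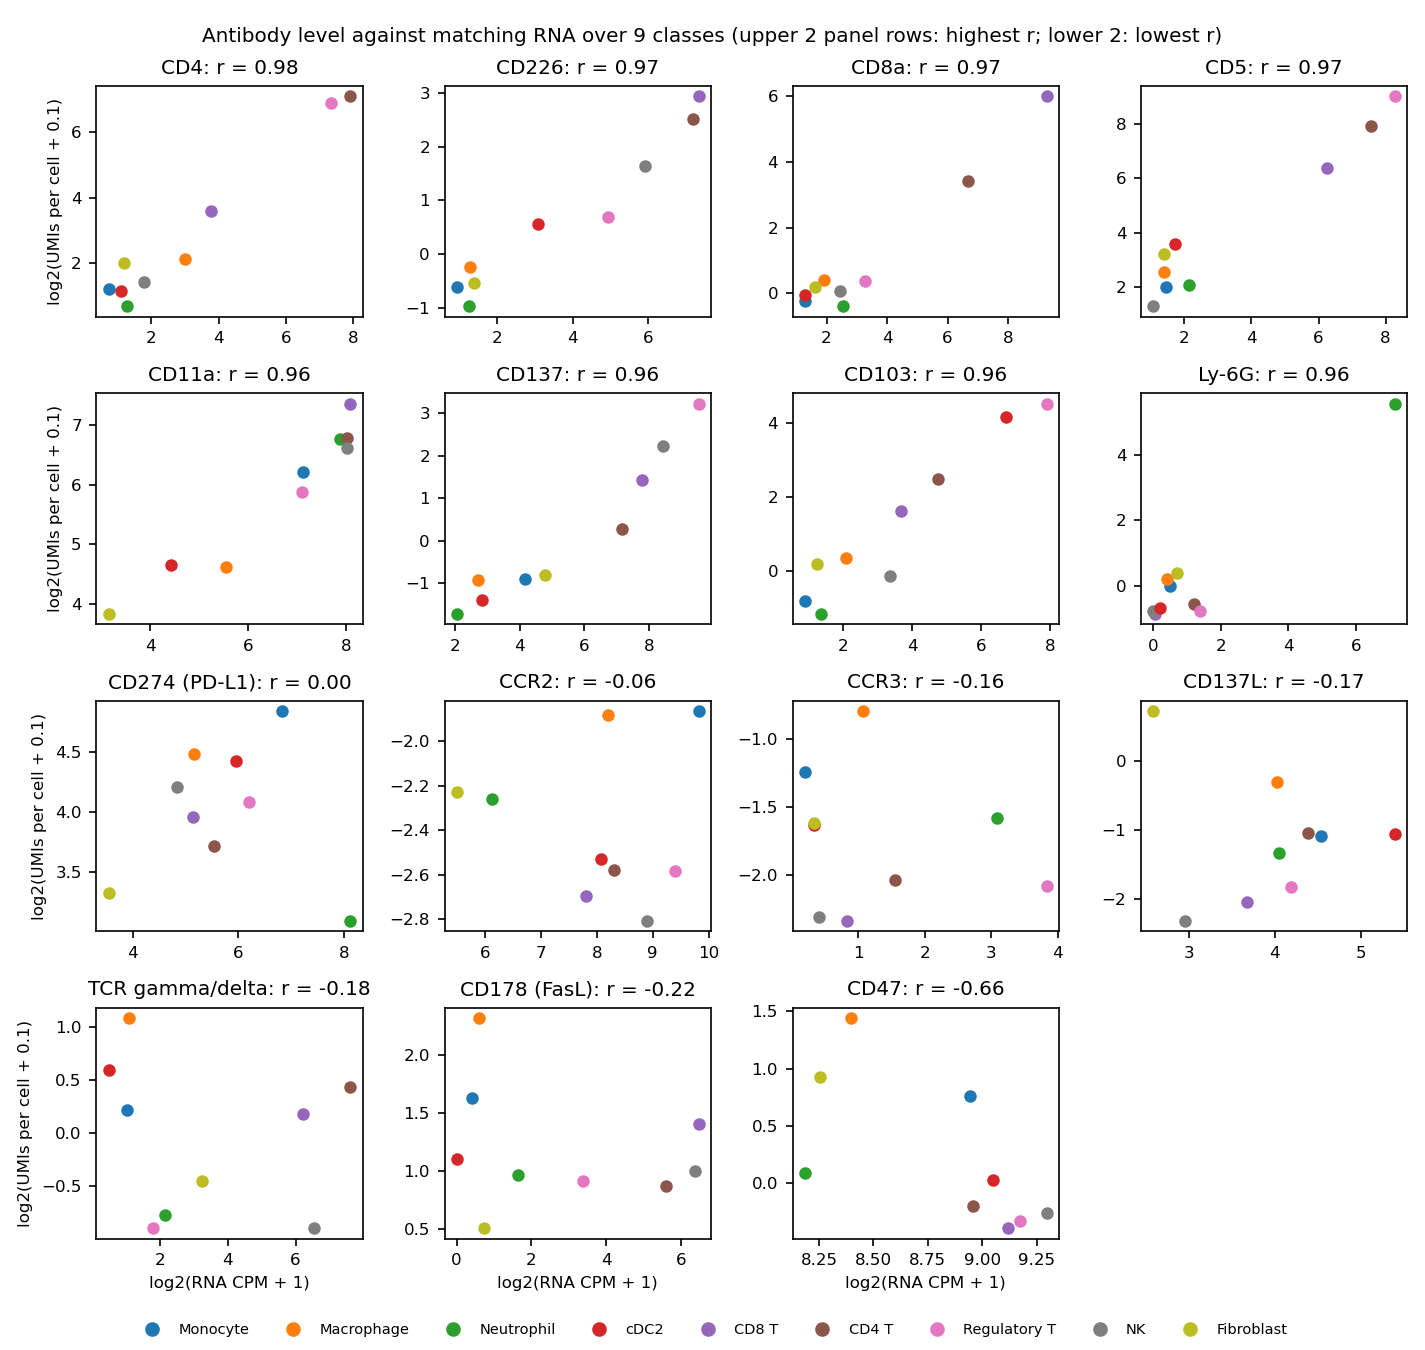
Antibody level, log2 of UMIs per cell plus 0.1 (vertical axes), against RNA of the matching gene, log2 of CPM plus 1 (horizontal axes), for the 8 antibodies with the highest correlation and 7 of those with the lowest. Each point is the mean over mice of 1 of 9 classes. CD4 (r = 0.98) rises along its RNA, and CD47 (r = −0.66) falls.

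**Figure D4:**
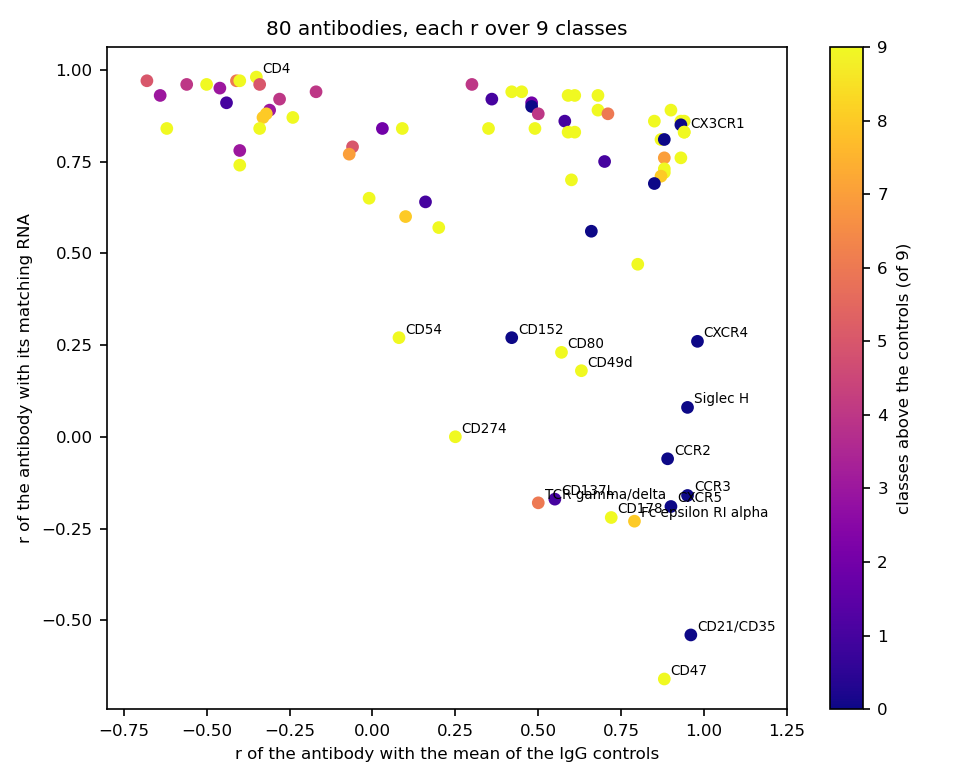
For each of 80 antibodies, Pearson's r over the 9 classes with the matching RNA (vertical axis) and with the mean of the IgG controls (horizontal axis). The colour gives the number of classes in which the antibody was above the controls. CCR3 lies at 0.95 with the controls and −0.16 with its RNA, and CD226 at −0.68 and 0.97.

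Abundant RNA came without a call above the controls in 26 of the 200 pairs at 100 CPM or more. Of these, 7 were classes of CCR2, the monocyte chemokine receptor, which had 902.3 CPM of RNA in monocytes and 0.1746 ± 0.0705 UMIs of antibody per cell, under the highest control by the mean (−0.86 on the log2 scale). CD115, the receptor of colony-stimulating factor 1, gave 4, with 609.5 CPM and 1.187 ± 0.752 UMIs per cell on macrophages. MSR1, a scavenger receptor, had 338.6 CPM and 0.0969 UMIs per cell on macrophages, and CTLA-4 gave 3 pairs. A pair without a call could still stand over the highest control by less than the 2-fold limit. CD115 did so on monocytes (0.63 on the log2 scale, adjusted p = 0.0113) and on cDC2 (0.97, adjusted p = 0.00726, exact sign permutation). The missing calls do not say that antigen was absent.

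The design then allowed anti-PD-1 to be set against isotype within each genotype. Antibody counts summed per mouse were fitted with edgeR, the pool as a covariate, and called at a Benjamini-Hochberg adjusted p of at most 0.05 per class and contrast. Across 11 class and genotype contrasts with at least 3 mice a side, 19 of 917 tests were called. In floxed mice the share of antibodies called was 8.54% in fibroblasts (7 of 82), 6.9% in macrophages (6 of 87), 2.6% in NK cells (2 of 77) and 1.15% in monocytes (1 of 87). In LysM-Cre mice it was 3.45% in macrophages (3 of 87) and 0% in the other classes tested. CD8 T cells had 0% in both genotypes.

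Macrophages of anti-PD-1 mice carried less CD169 and CD68. CD169 on floxed Macrophage cells was 1.612, 2.344, 2.64 and 1.955 UMIs per cell in the isotype mice, and 0.7662, 0.6275, 1.079 and 0.702 in the anti-PD-1 mice. Every isotype mouse was above every anti-PD-1 mouse. The change was −1.24 ± 0.24 (log2 ± SE, adjusted p = 0.00864, edgeR), and the call ended on leaving out mouse 1 of the floxed isotype group (−1.1, adjusted p = 0.0675) or its mouse 3 (−1.05, adjusted p = 0.0884). Within pool E5 alone it was −1.45 (adjusted p = 0.128) and within E6 alone −1.11 (adjusted p = 0.227), with 2 mice a side. In LysM-Cre mice it was 1.532, 1.749, 1.378 and 1.882 with isotype and 0.95, 0.7361, 1.094 and 1.673 with anti-PD-1, which overlap in 1 mouse, and the change did not pass (−0.71 ± 0.23, adjusted p = 0.0942). The genotypes did not differ in this change by the test of the interaction (0.53 ± 0.33, adjusted p = 0.942). Rat IgG1 changed by 0.16 ± 0.37 and hamster IgG by 0.88 ± 0.49 in the floxed macrophages, neither called.

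CD68 on floxed Macrophage cells was 4.853, 6.669, 6.18 and 7.264 UMIs per cell with isotype and 2.623, 2.706, 3.237 and 3.185 with anti-PD-1. These groups did not overlap. It fell by 0.89 ± 0.20 on the log2 scale (adjusted p = 0.021, edgeR), and by 0.86 ± 0.20 in LysM-Cre mice (adjusted p = 0.0287), where 4.435, 4.186, 5.842 and 7.68 stood against 4.517, 2.366, 3.226 and 2.857 and 1 anti-PD-1 mouse lay among the isotype mice. The floxed call was lost without any 1 of 7 mice and the LysM-Cre call without any 1 of 11, with changes of −0.96 to −0.74 in floxed and −1.02 to −0.7 in LysM-Cre mice. CD115, at 1.478, 1.726, 1.904 and 1.318 with isotype and 0.5844, 0.7451, 0.4211 and 0.5232 with anti-PD-1, fell by 1.33 ± 0.33 in floxed mice (adjusted p = 0.0309), from −1.47 to −1.08 without single mice and lost without 6 of them.

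RNA of the same genes was tested over all genes of the class. In the floxed Macrophage contrast 3 of 9659 genes were called (0.0311%), all of them T cell receptor or CD3 genes with a match in the panel. Siglec1 RNA was 39.65, 49.88, 30.62 and 28.49 CPM with isotype and 14.34, 10.2, 13.12 and 14.82 with anti-PD-1 in floxed macrophages, a change of −1.37 ± 0.30 that did not pass over all genes (adjusted p = 0.077, edgeR), although the groups did not overlap. Cd68 RNA changed by 0.19 ± 0.14 (adjusted p = 0.571), with 531.6 to 713 CPM against 539.7 to 750.7 CPM. Siglec1 lies on chromosome 2, positions 131067801 to 131086778 of mm10, and Cd68 on chromosome 11, positions 69664213 to 69666170.

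The other antibodies called on Macrophage cells were mostly antigens of lymphocytes. In floxed mice these were CD4 (−1.28 ± 0.37, adjusted p = 0.0487), ITGB7 (−1.37 ± 0.39, 0.0487) and TCR beta (−0.88 ± 0.24, 0.043), and in LysM-Cre mice CD5 (−2.10 ± 0.48, 0.0287) and CD55 (−1.27 ± 0.33, 0.0448; log2 ± SE, edgeR adjusted p). CD5 was 8.048, 15.7, 7.321 and 4.039 UMIs per cell in LysM-Cre isotype and 2.783, 2.264, 2.104 and 1.612 with anti-PD-1 in that genotype, with no overlap. RNA of 9 CD8 T cell marker genes, Trac and Cd8a among them, summed in macrophages to 50.06 to 102.2 CPM in floxed isotype and 9.877 to 22.94 CPM in floxed anti-PD-1 mice, and to 22.68 to 101.7 and 6.552 to 20.52 CPM in LysM-Cre mice. Trbc1 RNA fell by 3.54 ± 0.53, Cd3g by 3.34 ± 0.48 and Trbc2 by 2.73 ± 0.43 in floxed macrophages (log2 ± SE, adjusted p = 0.0204, 0.0204 and 0.0247, edgeR).

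In all, 372 of 2418 macrophages held RNA of a T cell receptor or CD3 gene. Such RNA was also held by 615 of 4527 monocytes, 191 of 1681 neutrophils, 75 of 513 cDC2 and 445 of 977 fibroblasts. Without the myeloid and fibroblast cells that held such RNA, a setting chosen after seeing the data, CD4 changed by −0.72 (adjusted p = 0.196), TCR beta by −0.66 (0.0713) and ITGB7 by −1.40 (0.0503) in floxed Macrophage cells, and CD5 by −0.75 (0.236) and CD55 by −1.24 (0.144) in LysM-Cre. None of these 5 then passed the test. CD169 (−1.20, adjusted p = 0.00291), CD115 (−1.37, 0.0337) and CD68 (−0.89, 0.0228) in floxed macrophages were called as before. Each of those 5 calls was also lost without any 1 of at least 10 of the 16 mice.

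CD169 was also called lower on monocytes. On floxed Monocyte cells it was 0.6667, 0.5571, 1.283 and 0.9548 UMIs per cell with isotype and 0.1694, 0.2593, 0.4434 and 0.2613 with anti-PD-1, with no overlap. It fell by 1.49 ± 0.35 (log2 ± SE, adjusted p = 0.0479, edgeR), a call lost without any 1 of 9 mice, from −1.69 to −1.39. On CD8 T cells, where Siglec1 RNA averaged 2.12 CPM, the antibody ranged from 0.4691 to 0.8314 with isotype and from 0.08511 to 0.25 with anti-PD-1 in floxed mice, a change of −1.62 ± 0.48 that did not pass (adjusted p = 0.12).

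Fibroblasts of floxed mice showed the most changes. CD9 on floxed Fibroblast cells was 19.31, 16.28, 35.54 and 36.19 UMIs per cell in the 4 isotype mice and 39.93, 75.64 and 65.5 in the 3 anti-PD-1 mice with at least 20 cells. Podoplanin was 87.74, 88.66, 87.39 and 83.6 with isotype and 112.7, 187.4 and 117.7 with anti-PD-1. Neither antibody's groups overlapped. CD9 rose by 2.02 ± 0.36 and podoplanin by 1.54 ± 0.29 (log2 ± SE, adjusted p = 0.00284 each, edgeR), and both kept the call without any 1 of 16 mice. Within pool E6 alone the changes were 1.99 and 1.85 (adjusted p = 0.0968 each), and pool E5 held only 1 of the anti-PD-1 mice. With the number of cells as the library size podoplanin changed by 0.58 (adjusted p = 0.171). In LysM-Cre mice the changes were 0.92 ± 0.33 and 0.69 ± 0.26 (adjusted p = 0.279 and 0.285), and the interactions did not pass (−1.1 ± 0.48 and −0.85 ± 0.39, adjusted p = 0.482 each). Cd9 RNA changed by 0.97 ± 0.30 and Pdpn RNA by 0.48 ± 0.19 in floxed mice (adjusted p = 0.345 and 0.432).

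CD169 and CD68 fell on floxed Fibroblast cells too. CD169 was 1.949, 3.089, 1.473 and 2.457 UMIs per cell with isotype and 0, 0.3404 and 0.06667 with anti-PD-1, and CD68 was 3.677, 4.576, 3.054 and 3.815 against 0.1481, 0.9787 and 0.2667. The isotype mice were above the anti-PD-1 mice for both. The changes were −3.19 ± 0.76 and −2.28 ± 0.53 (adjusted p = 0.0157 and 0.0156, edgeR). They were lost without floxed anti-PD-1 mouse 1 (−2.49 and −1.72, adjusted p = 0.0768 and 0.0843), floxed anti-PD-1 mouse 4 (−2.85 and −2.0, 0.0938 each) or floxed isotype mouse 4 (−3.03 and −2.23, 0.0611 each). Without floxed anti-PD-1 mouse 3 they were −5.05 and −3.25 (adjusted p = 0.00492 and 0.00281). Siglec1 RNA in these cells was at most 2.572 CPM in any floxed mouse, and the isotype mouse with the most CD169 antibody had 0.1732 CPM.

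RNA of 13 macrophage marker genes in fibroblasts summed to 369.3 to 3614 CPM in floxed isotype and 599.6 to 986.4 CPM in floxed anti-PD-1 mice, and 279 of 977 fibroblasts held at least 5 UMIs of the C1q genes. At that limit stood also 202 of 1681 neutrophils, 218 of 1768 CD8 T cells and 124 of 1141 NK cells. The part of the fibroblasts with C1q RNA in the antibody values was not tested beyond leaving those fibroblasts out. CD88 (−1.19 ± 0.35, adjusted p = 0.0464) and CD137L (1.35 ± 0.38, 0.0364) on floxed Fibroblast cells were called in the whole class and no longer without the fibroblasts that held C1q RNA (−0.88, adjusted p = 0.322, and 1.24, 0.0579). CD44 rose by 0.99 ± 0.26 (adjusted p = 0.0245) relative to the other antibodies, while its UMIs per cell overlapped, at 161.9, 184.4, 342.2 and 213.3 with isotype and 158.7, 295.2 and 251.9 with anti-PD-1. With the number of cells as the library size its change was −0.04. The median antibody changed by 0.10 under TMM and by −0.95 with that library size.

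On floxed NK cells, TIM-3 was 0.1203, 0.1566, 0.267 and 0.325 UMIs per cell with isotype and 1.12, 0.4186 and 0.5 in the 3 anti-PD-1 mice tested, beside Havcr2 RNA of 1.705 to 9.81 and 9.039 to 23.99 CPM. CD11a, the alpha chain of the integrin LFA-1, was 78.25, 80, 109.5 and 105 with isotype and 100.9, 115 and 134.3 with anti-PD-1. The groups were separate for TIM-3 and overlapped for CD11a. The changes were 1.97 ± 0.48 and 0.58 ± 0.14 (log2 ± SE, adjusted p = 0.039 each, edgeR), and both calls were lost without any 1 of 12 mice, with TIM-3 changes of 1.25 (without floxed anti-PD-1 mouse 1) to 2.17, or with the pool left out of the model (adjusted p = 0.0903 and 0.106). NK cells of floxed anti-PD-1 mouse 1 also carried 13.68 UMIs of CD4 and 1.48 of CD279 per cell, against at most 4.735 and 0.6648 in the other mice. RNA of the 9 NK marker genes summed to 6248 to 7432 CPM with isotype and 6865 to 9268 CPM with anti-PD-1, and that of the 9 CD8 T genes to 454 to 677.4 and 604.4 to 973.5 CPM.

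CD279 on CD8 T cells, the target of the treatment, was 2.897, 2.961, 2.651 and 4.309 UMIs per cell in floxed isotype and 2.312, 2.213 and 2.95 in floxed anti-PD-1 mice. In LysM-Cre mice it was 1.231, 2.69, 3.454 and 2.897 with isotype and 2.22, 1.738, 2.067 and 4.685 with anti-PD-1. The groups overlapped in both genotypes. The changes were −0.25 ± 0.30 and 0.11 ± 0.27 (log2 ± SE, adjusted p = 0.657 and 0.839, edgeR, CD8 T class). TIM-3 on CD8 T cells changed by 0.59 ± 0.29 in floxed and 1.0 ± 0.28 in LysM-Cre mice (adjusted p = 0.328 and 0.0659), and CD223 by 0.39 ± 0.30 in floxed mice (0.427).

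**Figure D5:**
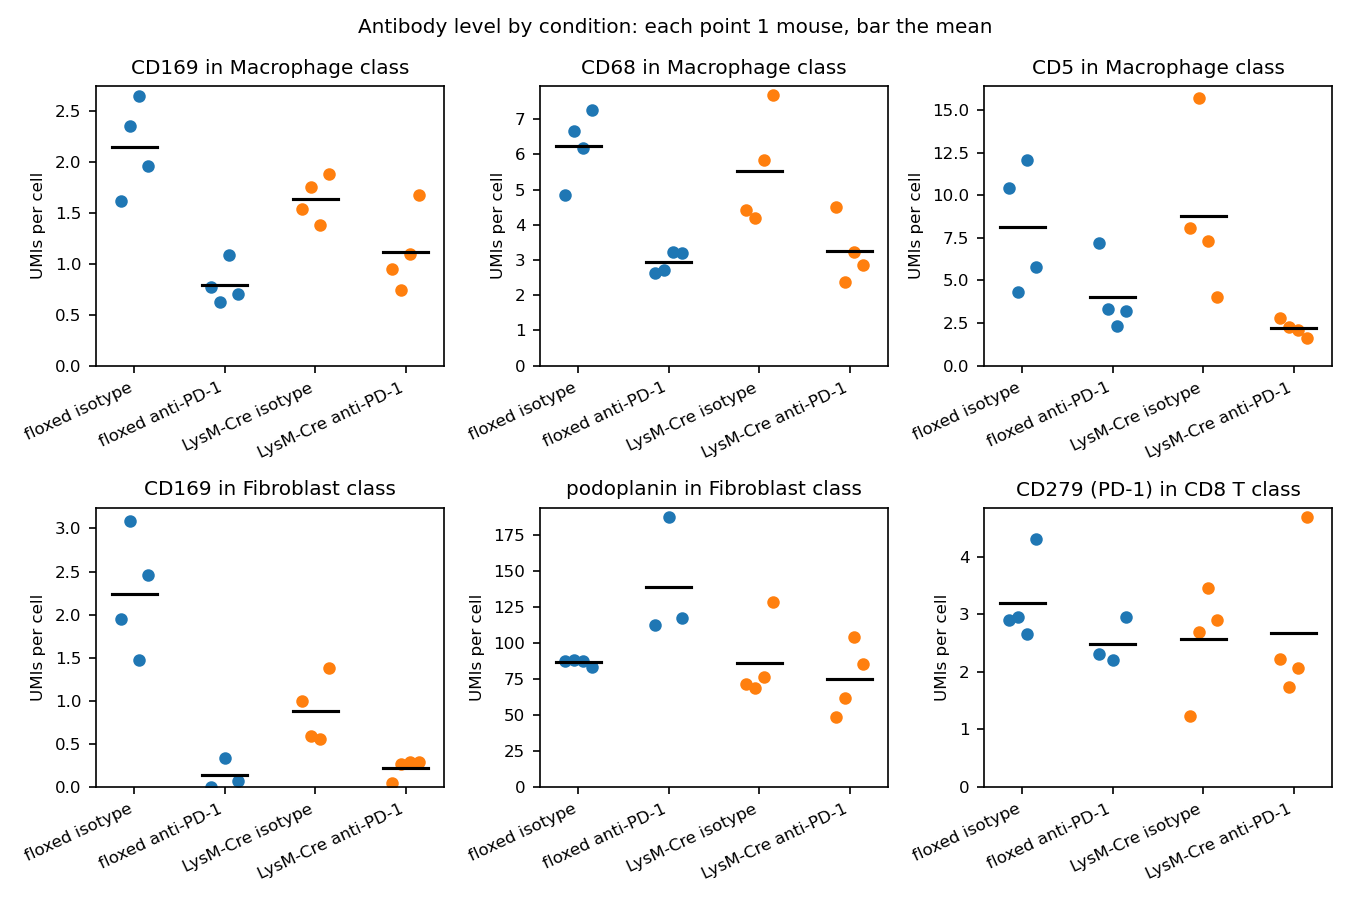
Antibody UMIs per cell (vertical axes) by condition (horizontal axes) for CD169, CD68 and CD5 on macrophages, CD169 and podoplanin on fibroblasts and CD279 on CD8 T cells. Each point is a mouse and the bar is the mean of the condition. CD169 on macrophages lies between 1.612 and 2.64 in floxed isotype and between 0.6275 and 1.079 in floxed anti-PD-1 mice, and CD279 on CD8 T cells overlaps between treatments.

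LysM-Cre mice were set against floxed mice in 14 class and treatment contrasts. edgeR called 0 of 1138 antibody tests (0% in each contrast), 64 were at an unadjusted p under 0.05, and DESeq2 called 6. The interaction of genotype and treatment, in 5 classes, gave 0 of 416 calls by edgeR (0% in each class), 27 at an unadjusted p under 0.05 and 2 calls by DESeq2. Across all genes, genotype calls under isotype were 1 gene in macrophages (0.0104%) and 1 gene in regulatory T cells (0.0146%), neither a match of the panel. For the matching genes edgeR called 3 of 604 treatment tests, against 95 at an unadjusted p under 0.05 and 10 by DESeq2. It called 0 of 782 genotype tests (59 unadjusted, 0 by DESeq2) and 0 of 282 interaction tests (18 unadjusted, 1 by DESeq2).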

How the data were processed

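RNA, hashtags and surface antibodies were measured in 6 deposited libraries, an RNA, a hashtag and an antibody library for each of 2 pools of 8 mice. The deposited matrices hold raw UMI counts for each feature in each barcode. The file headers name version 6.1.2 of the software that wrote the matrices, whereas Cell Ranger 3.0.1 and mm10 are named in the submitters' processing notes. Hashtags were matched to mice through the submitters' list of antibodies.

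Barcodes with 500 or more gene UMIs, 200 or more genes and at most 10% mitochondrial UMIs were assigned to mice with HTODemux (Seurat 5.3.0, quantile 0.99), and those over 20000 antibody counts were left out. Cells were clustered on RNA at resolution 1 with leidenalg 0.10.2, in scanpy 1.11.5, from 15 neighbours in 30 components of 2000 variable genes. Clusters were named from marker lists where at least 3 markers were detected in 10% of cells and averaged 0.5 or more on the log2 scale over other cells, a limit set after seeing the files. The names CD4 T and CD8 T also required Cd4 or Cd8a RNA at 1 or more on the log2 scale over other cells. Proliferation genes led 1 macrophage and 1 CD8 T cluster, and interferon genes 1 monocyte cluster.

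Counts were summed per mouse and class where a mouse had at least 20 cells. Levels above the controls used an exact sign permutation (scipy 1.17.1) with a pseudocount of 0.1 UMIs per cell. Class and condition contrasts used edgeR 4.0.16 (quasi-likelihood, TMM over antibodies with at least 100 counts, Benjamini-Hochberg), with the mouse or the pool as a covariate, and DESeq2 1.42.0 as an alternative. RNA was fitted over all genes past filterByExpr. The procedures were tested on simulated data. P-values of the condition contrasts measure the spread between mice, all stained in 2 pools. The class contrasts and the comparison with controls are made within mice, so their p-values measure how differences within a mouse vary over mice.

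Named antibodies were the controls, up to 5 called per class contrast by size with the sign of the fit in 3/4 of mice, up to 10 per condition contrast, the 8 highest and 8 lowest correlations with RNA of at least 10 CPM, checkpoint antibodies, defining antigens of the classes and antibodies at 0 counts. All others, such as CD86, CD80 and CD163, were chosen after their values were seen. The members and lists were chosen with earlier results of these data known. Results for 3 antibodies of the panel are not reported here, although counts over the panel include them.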

Additional observations from a re-analysis of the deposited data

Results flagged for a closer look

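Among 88 condition groups of 4 mice, 7 held a mouse far from the other 3, where chance flags about 1 in 20 groups. CD279 on CD8 T cells was 4.685 UMIs per cell in LysM-Cre anti-PD-1 mouse 4 and at most 2.22 in the others. On fibroblasts, CD169 was 0.04762 in LysM-Cre anti-PD-1 mouse 1 against at least 0.2632, and podoplanin was 128.9 in LysM-Cre isotype mouse 4 against at most 76.76. The other 4 were controls. Rat IgG1 on macrophages was 1.098 in LysM-Cre isotype mouse 4 against at most 0.3871. Rat IgG2b on macrophages was 0.01299 in floxed anti-PD-1 mouse 1 against at least 0.05263. Hamster IgG on monocytes was 0.5729 in LysM-Cre isotype mouse 4 against at most 0.1492, and 1.333 in floxed anti-PD-1 mouse 2 against at most 0.2807.

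A further 9 were antibodies far higher in a class outside the tests than in any tested class. B cells held 13.85 UMIs per cell of CD21/35 (highest tested class 0.2764) and 5.071 of IgM (0.3994). Mature dendritic cells held 7.215 of CD83 (0.439), and plasmacytoid dendritic cells 9.296 of SiglecH (1.533). Mast cells or basophils held 208.5 of CD117 (4.028), 43.03 of FcεRIα (2.223), 570.3 of CD63 (21.84) and 69.65 of IL1RL1 (0.6019). The smaller cluster of that class, of 33 cells led by Mcpt8, held 0.4242 of CD117, 12.33 of FcεRIα, 19.76 of CD63 and 0.6364 of IL1RL1. Eosinophils held 112.7 of Siglec-F (11.71). These classes had too few mice with 20 cells for a test.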

How the results depend on the processing

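The 478 calls above the controls ran from 475 to 486 without single mice. They came to 311 with 50 cells required, where fewer classes and comparisons remained. The 307 class calls ran from 299 to 339 without single mice, 135 to 152 of them higher. With no replicate block, that is with the mouse left out of the model, they were 306, 140 of them higher.

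Where a count moved, the cause was not tested unless given. The 19 treatment calls were 8 with DESeq2's size factors, 4 with the IgG control counts and 30 with the number of cells as library size, 41 with the DESeq2 test, 11 with another hashtag rule (the top hashtag at least 3-fold over the next), 7 without the cells of other classes that held T cell receptor RNA, 4 in pool E5 and 0 in pool E6 alone, where fewer mice were tested, and 5 to 20 without single mice. With no replicate block, the pool left out, they were 18. Replicate numbers only name mice, so no other pairing was fitted. The 0 genotype calls became 1 with the IgG counts, 1 with the number of cells, 6 with DESeq2, 1 with the other hashtag rule, 1 without shared barcodes and 0 to 2 without single mice. The 0 interaction calls became 2 with DESeq2's size factors, 2 with the IgG counts, 1 with the number of cells, 2 with DESeq2, 1 with the pool left out and 0 to 2 without single mice.

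For the matching RNA, the 3 treatment calls became 5 with DESeq2's size factors, 10 with DESeq2, 125 with no filter on low counts, 0 with the other hashtag rule, 0 without the cells that held T cell receptor RNA and 0 to 7 without single mice. Genotype calls became 68 and interaction calls 21 with no filter, DESeq2 called 1 interaction, and leaving out single mice gave 0 to 1 genotype calls.

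The median correlation of antibody and RNA (0.83, with 0.83 and 0.82 in the pools) was 0.66 with antibody CPM and 0.82 with UMIs per cell divided by the mean of the controls. Of the recalculated correlations of named antibodies, 46 were counted as the same and 34 as moved, so the named values depend on these settings. Directions turned in 4 cases, CD279 on CD8 T cells of LysM-Cre mice without LysM-Cre anti-PD-1 mouse 4 (−0.10) or LysM-Cre isotype mouse 1 (−0.01; −0.1 to 0.23 over all mice left out), CD44 on fibroblasts with the number of cells (−0.04) and CD88 on fibroblasts with the other hashtag rule (0.05). Of the recalculated treatment changes of named antibodies and genes, 400 kept their direction and call and 278 kept only the direction. Antibodies with levels near the controls and classes with few mice limit the treatment contrasts.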

Other observations

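CD163, the haemoglobin scavenger receptor, differed between mice far more than other macrophage antigens. On macrophages it was 4.286, 5.503, 66.64 and 64.55 UMIs per cell in floxed isotype mice and 4.857, 108.3, 302 and 4.629 in floxed mice given anti-PD-1. In LysM-Cre mice it was 16.27, 1.432, 3.904 and 9.782 with isotype and 9.683, 5.389, 2.557 and 3.571 with anti-PD-1. The 4 mice with the most antibody, 2 of each floxed condition, were also the 4 with the most Cd163 RNA, at 51.89, 25.9, 66.29 and 64.79 CPM against at most 10.42 CPM in the others. The 8 LysM-Cre mice had at most 16.27 UMIs per cell, and neither genotype contrast called CD163.

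The CD3 antibody was high in 4 isotype mice, 2 in each pool. On CD8 T cells these were floxed isotype mice 1 and 3 (7.897 and 11.78 UMIs per cell) and LysM-Cre isotype mice 2 and 4 (11.77 and 14), and the other 11 mice ranged from 2.66 to 4.967. The same 4 mice were highest on CD4 T cells, at 13.5, 19.82, 16.05 and 18.94 against 5.382 to 9.35, and on regulatory T cells, at 20.69, 25.03, 25.93 and 25.17 against 8.892 to 10.27. CD3 RNA in CD8 T cells ranged from 2083 to 2970 CPM over all mice.

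Single antibodies stood out in floxed anti-PD-1 mouse 1. JAML on its macrophages was 31.84 UMIs per cell against at most 4.57 in the other mice, and TCR gamma/delta on its CD8 T cells was 10.03 against at most 0.6705. These items were chosen after their values were seen.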
